A study of Mus musculus with 469 samples.

Results

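Single cells carrying the Neurog1-eGFP reporter were compared between olfactory epithelium taken 5 days after olfactory bulbectomy (5dpOBX) and uninjured olfactory epithelium. All came from mice of the FVB Neurog1-eGFP strain, labelled Neurog1-eGFP+ and 8 weeks old, so both groups carry the reporter and their descriptions differ in the bulbectomy alone. The groups also differ in library number, since most 5-day libraries are numbered above every uninjured one. Cells of each group are numbered in that order. The part of library order in the differences below was not tested. Cells were dissociated, sorted for green fluorescence and captured with the Fluidigm C1 system, which isolates cells singly and amplifies their polyadenylated RNA. The comparison was set by the labels, not by measured values: 51 libraries from 5 days and 61 uninjured libraries were labelled so, which is 23.9% of the libraries of the whole series. A library was kept when 1000 or more genes had a value of 1 or more in the deposited table, which left 48 cells at 5 days and 46 uninjured cells, 94 in all, or 20% of the series. The 5-day libraries just inside and just outside that limit had 1126 and 989 genes, and the uninjured ones inside and outside 1020 and 995. The filter removed 5.88% of the 5-day libraries and 24.6% of the uninjured ones. The labels name no animal, so each group is 1 sample, no test between groups was possible and no difference below has a replicate check.

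Olfactory sensory neurons are replaced throughout life from globose basal cells. Immediate neuronal precursors that express the proneural factor Neurog1 leave the cycle as immature neurons, which express the growth-cone protein Gap43 and send an axon to the olfactory bulb. In the course of their development they choose an odorant receptor. On maturing they express the olfactory marker protein Omp and assemble the transduction cascade in their cilia. Bulbectomy, the removal of the axons' target, kills the neurons that project there and sets off a wave of replacement. Green fluorescence outlasts the reporter's own transcription, so a Neurog1-eGFP sort holds precursors together with their recent neuronal progeny.

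The promoters of 3 genes on which the comparison turns are printed here, because Tmem87b and Ssr1, higher at 5 days, and Stoml3, lower at 5 days, are examples to which the results below return. Each is the 250 bases before the transcription start in RefSeq's promoter table for build GRCm38.p6, read along the gene's own strand. The deposited tables were made on another build (mm9), so these coordinates belong to GRCm38.p6 only. Capitals mark a proneural E-box found in the Ssr1 promoter.
Stoml3, chr3:53488457-53488706, plus strand: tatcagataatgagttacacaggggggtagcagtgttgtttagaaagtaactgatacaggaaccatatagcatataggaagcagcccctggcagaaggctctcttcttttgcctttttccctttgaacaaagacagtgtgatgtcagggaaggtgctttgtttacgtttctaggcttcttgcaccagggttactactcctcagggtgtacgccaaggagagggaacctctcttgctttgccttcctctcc
Tmem87b, chr2:128818053-128818302, plus strand: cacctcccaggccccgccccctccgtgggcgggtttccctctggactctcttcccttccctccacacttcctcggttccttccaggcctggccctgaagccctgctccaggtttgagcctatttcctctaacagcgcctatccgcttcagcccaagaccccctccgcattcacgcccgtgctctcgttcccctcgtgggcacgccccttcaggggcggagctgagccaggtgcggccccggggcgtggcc
Ssr1, chr13:37994209-37994458, minus strand: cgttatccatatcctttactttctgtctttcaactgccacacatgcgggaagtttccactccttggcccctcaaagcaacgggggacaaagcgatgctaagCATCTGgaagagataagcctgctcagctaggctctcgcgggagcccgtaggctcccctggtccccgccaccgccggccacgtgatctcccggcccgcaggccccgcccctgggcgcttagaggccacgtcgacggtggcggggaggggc

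In such windows 3 kinds of motif were searched on both strands: an EBF motif (TCCC and GGGA set 2 bases apart), a proneural E-box (CAGATG or CATCTG) and a homeodomain core (TAATTA or TAATTG). The letters of the motifs do not contain one another. Over all 32851 promoters of the table, 0.779% held the first, 14.4% the second and 11.3% the third. Of 18 mature neuron markers, 14 matched the table with 23 promoters, of which 0 held the EBF motif, 4 the E-box and 3 the homeodomain core. Of 13 immature neuron markers, 8 matched with 10 promoters, of which 1 held the EBF motif, 0 the E-box and 2 the homeodomain core. Of the genes named below as higher at 5 days, 7 of 8 matched, with 9 promoters, of which 1, the Ssr1 promoter above, held an E-box. Of those named as lower, 14 of 17 matched, with 17 promoters, of which 2 held an E-box and 1 a homeodomain core. The windows of Stoml3 and Tmem87b held none of these motifs.

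Values are CPM, each gene's part of the cell's deposited signal per 1000000, and a gene counts as found in a cell from 10 CPM upward. Recovered depth was 201121 to 2139270 fragments per cell at 5 days (median 1136940) and 77284 to 1641980 in uninjured cells (median 848318), while the median number of genes was nearly equal, 2867.5 at 5 days and 2864.5 uninjured. At the median depth the limit of 10 stands for 11.4 fragments at 5 days and 8.48 uninjured, and in the shallowest cell of each group for 2.01 at 5 days and 0.773 uninjured. Intervals in brackets are exact Clopper-Pearson 95% intervals over cells. They cover counting error only, not differences between animals, and reads amplified by PCR and lacking molecular identifiers are not separate molecules. Set apart from the rest were 2 libraries at 5 days with 10 and 8 of 10 sustentacular markers and no Neurog1, Gap43 or Omp, and 1 uninjured library with 6 markers. A Y-linked gene without Xist was found in 42 of 48 cells at 5 days and in 25 of 46 uninjured cells, Xist without a Y-linked gene in 0 at 5 days and 5 uninjured, both in 2 at 5 days and 4 uninjured, and neither in 4 at 5 days and 12 uninjured. At 5 days 2 pairs of libraries, cells 21 and 22 and cells 13 and 15, were far more alike than any other 2: their log2 values correlated at 0.99 and 0.95 over genes, against a median of 0.33 over 7021 pairs of kept libraries, 14 days after bulbectomy included, and 93.6% and 88.1% of the genes found in either cell were found in both, against a median of 25.6%. Their counts differed by more than sampling noise (chi-square per degree of freedom 6.18 and 160.7, against a median of 360.2 over 20 pairs of middling correlation). Since amplified reads are not separate molecules, these values cannot show whether a pair stems from 1 cell, which was not tested. Each library was kept as 1 cell. With each pair counted once the 5-day group has 46 cells, and the leading shares and genes are also given so.

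Neurog1, the gene behind the reporter, was examined first. It was found in 18 of 48 cells at 5 days (37.5%, 23.95 to 52.6) and in 23 of 46 uninjured cells (50%, 34.9 to 65.1). Its level ran from 0 through a median of 0 to 442.4 CPM at 5 days, against 0, 9.86 and 399.4 CPM in uninjured cells. The ranges and intervals overlapped, and the log2 ratio of mean CPM plus 1, at 5 days over uninjured, was 0.16, or −0.04 with each near-identical pair counted once. Neurog1 or Gap43 was found in 43 of 48 cells at 5 days (89.6%, 77.3 to 96.5) and in 39 of 46 uninjured cells (84.8%, 71.1 to 93.7). Most cells of both groups thus held at least 1 of these transcripts, though Neurog1 alone was not found in most cells of either group.

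The groups differed in which stage markers occurred together. Gap43 without Omp was found in 21 of 48 cells at 5 days (43.8%, 29.5 to 58.8) and in 5 of 46 uninjured cells (10.9%, 3.62 to 23.6), and the intervals did not overlap. Cells with Gap43 alone of the 3 markers numbered 15 of 48 at 5 days (31.3%, 18.7 to 46.3) and 2 of 46 uninjured (4.35%, 0.531 to 14.8). Neurog1 without Gap43 or Omp went the other way, in 6 of 48 cells at 5 days (12.5%, 4.73 to 25.2) and 12 of 46 uninjured (26.1%, 14.3 to 41.1), with overlapping intervals. Both Gap43 and Omp were found in 14 cells at 5 days (29.2%) and 19 uninjured (41.3%), and Omp without Gap43 in 3 at 5 days (6.25%) and 8 uninjured (17.4%).

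Among the cells with Gap43, Omp was also found in 14 of 35 at 5 days (40%, 23.9 to 57.9) and in 19 of 24 uninjured (79.2%, 57.8 to 92.9), a narrow overlap. Stoml3 was also found in 6 of those 35 cells at 5 days (17.1%, 6.56 to 33.6) and in 15 of the 24 uninjured (62.5%, 40.6 to 81.2), with no overlap. The share with Gap43 and no Omp was 42.9% at 5 days (18 of 42, interval 27.7 to 59) and 16% uninjured (4 of 25, 4.54 to 36.1) among cells with a Y-linked gene and no Xist, where the intervals overlapped. In the deposited FPKM values it was 43.8% at 5 days and 17.4% uninjured, again with overlapping intervals. With each near-identical pair counted once it was 43.5% at 5 days (20 of 46, 28.9 to 58.9) and 10.9% uninjured. The part of depth, and of what differs between cells with and without Y-linked transcripts, in this difference was not tested, beyond these values and the 45.8% at 5 days (22 of 48) and 11.1% uninjured (5 of 45) found after thinning every cell to 100000 fragments. The part of library order was not tested either. At 5 days Omp was found in most kept cells numbered 1 to 12, whose library numbers lie among the uninjured ones. It was found in a minority of those numbered 13 to 51, where Gap43 without Omp was more frequent.

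**Figure D1:**
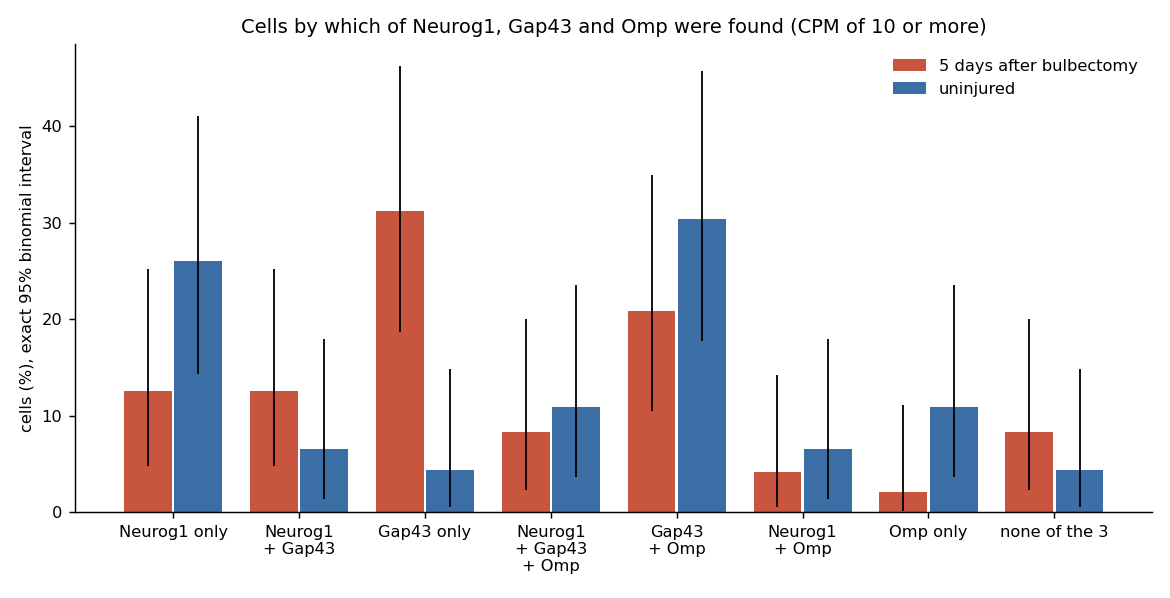
Share of cells (%, vertical axis) with each combination of Neurog1, Gap43 and Omp found from 10 CPM upward, for 48 cells at 5 days (red, left bar of each pair) and 46 uninjured cells (blue), with exact 95% binomial intervals as lines. The widest gap is for Gap43 alone, 31.3% at 5 days and 4.35% uninjured.

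Mean levels of most markers of mature neurons were lower at 5 days. Genes that averaged 5 CPM or more in 1 or both groups, 10054 in number, are called measured. Of them 20.9% were higher at 5 days by 2-fold or more and 26.3% were lower by as much, and the median log2 ratio was −0.13. With each near-identical pair counted once these were 20.8%, 26.3% and −0.13. The shares of 20.9% and 26.3% are the background for every list count below over all kept cells, and a count near them is no result about its list. In cells with a Y-linked gene and no Xist the background is 26.6% and 27.1%, with a median of −0.05. Without the libraries with sustentacular markers it is 19.6% and 27.4%, with a median of −0.16. Of 17 measured mature markers, 10 were lower and 0 higher by 2-fold or more, with a median log2 ratio of −1.20 (−1.16 in cells with a Y-linked gene and no Xist). This list overlaps markers that earlier results of these data had already shown to be lower. Summed per cell over the 18 listed markers in the data, their signal had medians of 5083 CPM at 5 days and 4647 CPM uninjured. Upper quartiles were 7654 CPM at 5 days and 9942 CPM uninjured, and maxima 21858 and 54338 CPM. The middle cell was thus not lower at 5 days, and the groups differed in the upper part of the range. Omp had a median of 0 and an upper quartile of 32.4 CPM at 5 days, against 47.2 and 1146 CPM in uninjured cells, with maxima of 2295 CPM at 5 days and 7821 CPM uninjured. It was found in 17 of 48 cells at 5 days (35.4%, 22.2 to 50.5) and 27 of 46 uninjured (58.7%, 43.2 to 73), with a log2 ratio of −2.84. Omp lies within Capn5 on the same strand in the GENCODE M21 annotation, so reads could be divided between the genes. The cells without Omp formed the majority at 5 days and the minority in the uninjured group, while the ranges and intervals overlapped.

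Stoml3, a stomatin-domain protein of the sensory cilia, had a median of 0, an upper quartile of 1.22 and a maximum of 1423 CPM at 5 days, against 3.57, 706 and 7065 CPM in uninjured cells. It was found in 7 of 48 cells at 5 days (14.6%, 6.07 to 27.8) and 22 of 46 uninjured (47.8%, 32.9 to 63.1), with a log2 ratio of −3.40. The highest uninjured cells lay above every 5-day cell, and the intervals of the shares did not overlap. Slc17a6, the vesicular glutamate transporter of these neurons, averaged 58.1 CPM at 5 days and 332.5 CPM uninjured, in 20.8% of cells at 5 days and 39.1% of uninjured cells. Umodl1 averaged 30.4 CPM at 5 days and 253.9 CPM uninjured, in 6.25% of cells at 5 days and 26.1% of uninjured cells, and S100a5, a calcium-binding protein, 19.6 CPM at 5 days and 640 CPM uninjured, in 6.25% of cells at 5 days and 19.6% of uninjured cells. In each group 1 cell held most of the S100a5 sum, 90.9% at 5 days and 67.9% uninjured. Cells with 10 or more mature markers found numbered 7 of 48 at 5 days (14.6%, 6.07 to 27.8) and 14 of 46 uninjured (30.4%, 17.7 to 45.8).

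The transduction cascade was not uniformly lower. The channel subunit Cnga4 averaged 12.1 CPM at 5 days and 150.6 CPM uninjured (log2 ratio −3.54), found in 2 cells at 5 days and 9 uninjured cells. Cnga2, another subunit of the same channel, was found in 21 of 48 cells at 5 days and 21 of 46 uninjured cells, at means of 283.3 CPM at 5 days and 518 CPM uninjured (−0.87). The receptor's G protein subunit Gnal was found in 70.8% of cells at 5 days and 73.9% of uninjured cells (log2 ratio −0.67), its partner subunit Gng13 in 62.5% at 5 days and 67.4% uninjured (−1.20), and the adenylyl cyclase Adcy3 in 16.7% at 5 days and 15.2% uninjured (−1.48). The receptor-transporting proteins Rtp1 and Rtp2, which bring odorant receptors to the membrane, had log2 ratios of −0.26 and 0.34, and Rtp1 stood at 0.65 in the cells with a Y-linked gene and no Xist. The chaperone-like factor Ric8b was found in 29.2% of cells at 5 days and 50% of uninjured cells (−1.09). Of 21 measured transduction genes, 1 was higher and 7 were lower by 2-fold or more (median −0.67), beside 20.9% and 26.3% of all measured genes. The higher one, the receptor kinase gene Adrbk2, was found in 1 cell, a library with sustentacular markers, at 657 CPM.

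**Figure D2:**
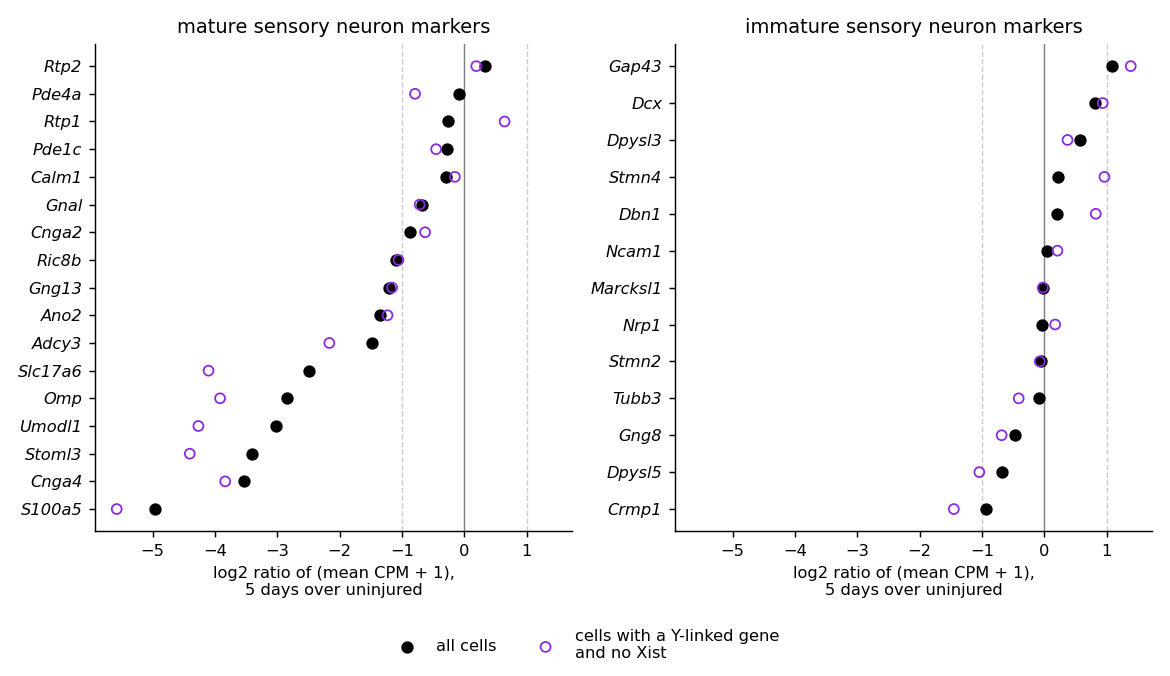
Log2 ratio of mean CPM plus 1, at 5 days over uninjured (horizontal axis), for measured markers of mature (left panel) and immature (right panel) sensory neurons, in all kept cells (filled) and in cells with a Y-linked gene and no Xist (open); dashed lines mark 2-fold. Of the mature markers 10 of 17 lie past 2-fold lower, and of the immature markers Gap43 alone lies past 2-fold higher in all cells.

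Immature neuron markers went in both directions. Gap43, a growth-cone protein of extending axons, had a median of 809, an upper quartile of 1564 and a maximum of 3479.7 CPM at 5 days, against 32.9, 422.04 and 4680.5 CPM in uninjured cells. The middle of the 5-day distribution was higher while the highest cell was uninjured, and the groups overlapped. Of the kept 5-day cells numbered 1 to 12, only cells 1 and 3 (1195 and 1000 CPM) lay above the 5-day median for Gap43. Most of the later-numbered 5-day cells lay above it. Gap43 was found in most cells of both parts. The part of library order in the Gap43 difference was not tested. Gap43 was found in 35 of 48 cells at 5 days (72.9%, 58.2 to 84.7) and 24 of 46 uninjured (52.2%, 36.9 to 67.1), with a log2 ratio of 1.08. Dcx, a microtubule-binding protein of migrating and extending neurons, had medians of 717 CPM at 5 days and 279.4 CPM uninjured (log2 ratio 0.82), and its relative Dclk1 1146 CPM at 5 days and 345.8 CPM uninjured (0.56). Dpysl3, a semaphorin-pathway protein, had medians of 1030 CPM at 5 days and 513 CPM uninjured (0.57), while its family members Dpysl5 and Crmp1 stood at −0.68 and −0.93. Tubb3, Stmn2, Ncam1, Marcksl1 and Nrp1 lay within 0.1 of 0 on the log2 scale. Of 13 members 1 was higher and 0 lower by 2-fold or more (median −0.02).

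Genes of axon growth followed no common direction. Of 23 measured growth-cone and actin genes, 1 was higher and 5 were lower by 2-fold or more (median −0.12), beside 20.9% and 26.3% of all measured genes. Limk2, a kinase that inactivates the actin-severing protein cofilin, averaged 7.83 CPM at 5 days and 92.8 CPM uninjured, and was found in 5 of 48 cells at 5 days (10.4%, 3.47 to 22.7) and 20 of 46 uninjured (43.5%, 28.9 to 58.9). Its log2 ratio was −3.41, or −5.06 in cells with a Y-linked gene and no Xist. Its substrate Cfl1 had a log2 ratio of 0.05, and the small GTPase Rac1 one of −1.59, found in 8 cells at 5 days and 15 uninjured cells. Of 20 microtubule genes, the kinesin Kif21b alone passed 2-fold, at 74.9 CPM at 5 days and 12.9 CPM uninjured, in 13 cells at 5 days (27.1%, 15.3 to 41.8) and 5 uninjured cells (10.9%, 3.62 to 23.6). Of 22 guidance genes, 3 (Robo1, Slit2 and Dcc) were higher and 4 lower by 2-fold or more. Robo1, a Slit receptor, was found in 24 cells at 5 days and 16 uninjured cells with a log2 ratio of 1.11, or 0.41 without the libraries with sustentacular markers. Dcc and Slit2 were found in 6 cells or fewer per group.

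Adhesion molecules that act when axons sort and converge included the lowest ratios of the axonal lists. Kirrel2, an adhesion protein whose level follows the activity of the neuron, was found in 0 of 48 cells at 5 days (a count of 0 that still permits 6.25%) and in 7 of 46 uninjured cells (15.2%, 6.34 to 28.9). The highest cells reached 8.82 CPM at 5 days and 1314 CPM uninjured. Kirrel3, its counterpart in a complementary set of axons, was found in 1 cells at 5 days and 4 uninjured cells (mean 0.429 CPM at 5 days and 17.8 CPM uninjured), and Kirrel in 1 cells at 5 days and 4 uninjured cells. Cntn2 and L1cam were also lower by 2-fold or more, Cntn2 found in 0 cells at 5 days and 6 uninjured cells and L1cam in 14 at 5 days and 13 uninjured. Cntn4, a contactin with a role in olfactory axon targeting, was higher, with medians of 1696 CPM at 5 days and 140.3 CPM uninjured and a log2 ratio of 0.81, in 72.9% of cells at 5 days and 65.2% of uninjured cells. Over the 17 measured adhesion genes, 1 was higher (Pcdh17) and 6 were lower by 2-fold or more, with a median of −0.50. In cells with a Y-linked gene and no Xist, 6 of 18 were higher and 7 lower. Over all genes measured in those cells the shares were 26.6% and 27.1%. The intervals of the shares of all these genes overlapped.

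Single genes were also named across the whole table, by a rule on level, share and ratio. Of 2381 genes averaging 50 CPM or more and found in 30% or more of cells in the higher group, 25 had shares whose intervals did not overlap, a background of 1.05%. Of these 25, 8 were higher and 17 lower at 5 days, and 4 and 14 of them passed 2-fold. The widest differences in share added Usp16, Tmcc3 and Lphn2 on the higher side and Aff3 on the lower, for 29 genes in all. Lphn2 was found in 64.6% of cells at 5 days and 34.8% of uninjured cells while its log2 ratio was 0.08, and Aff3 in 33.3% at 5 days and 63.04% uninjured, at −0.30. Since the rule used the ratios and shares, they are given as a description. All 25 kept their direction among the 42 cells at 5 days and 25 uninjured cells with a Y-linked gene and no Xist, Chuk at −0.03, but the share intervals of 18 then overlapped. The 7 whose intervals stayed apart were Ssr1, Limk2, Stoml3, Tmem117, Slc24a5, Tpm1 and Tnrc6b. With each near-identical pair counted once the intervals of 5 overlapped (Dynlt3, Prpf38b, Gpr171, Pclo and Suv420h2), and without the libraries with sustentacular markers those of 2 (Gpr171 and Tmem117).

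Tmem87b, a membrane protein of the Golgi, had the highest ratio of the named genes. Its median, upper quartile and maximum were 2.19, 163.8 and 6086 CPM at 5 days, against 0, 0 and 164.6 CPM in uninjured cells. At 5 days 22 of 48 cells had it (45.8%, 31.4 to 60.8) and in the uninjured group 5 of 46 (10.9%, 3.62 to 23.6), for a log2 ratio of 5.06. The upper part of the 5-day group lay above every uninjured cell. In cells with a Y-linked gene and no Xist the shares were 42.9% at 5 days and 16% uninjured, with overlapping intervals, and the log2 ratio 4.55. Of the 22 cells with Tmem87b at 5 days, Gap43 was found in 18 (81.8%, 59.7 to 94.8), Ssr1 in 16, Omp in 8 and Stoml3 in 3. Its paralog Tmem87a was found in 14 cells at 5 days and 16 uninjured cells (log2 ratio 0.81, 0.22 without the libraries with sustentacular markers). At 14 days after bulbectomy, in 25 cells of the same reporter strain, Tmem87b was found in 11 (44%, 24.4 to 65.1).

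Trmt10a, a tRNA methyltransferase, averaged 152.2 CPM at 5 days and 15.97 CPM uninjured, and was found in 17 of 48 cells at 5 days (35.4%, 22.2 to 50.5) and 4 of 46 uninjured (8.70%, 2.42 to 20.8), with a log2 ratio of 3.17, or 5.60 in cells with a Y-linked gene and no Xist. It overlaps Mttp on the opposite strand, as Ctnna1, named below, overlaps Lrrtm2. Bcl11a, a zinc-finger repressor of neuronal development, had upper quartiles of 153.7 CPM at 5 days and 59.5 CPM uninjured and was found in 31 cells at 5 days (64.6%, 49.5 to 77.8) and 14 uninjured cells (30.4%, 17.7 to 45.8), with a log2 ratio of 1.92. Without the libraries with sustentacular markers that ratio was 2.93, since 1 of those libraries held 50.4% of the uninjured sum. Its relative Bcl11b was found in 34 cells at 5 days and 29 uninjured cells, at 0.12. Dynlt3, a dynein light chain, was found in 60.4% of cells at 5 days and 28.3% of uninjured cells, the mitochondrial ribosomal protein Mrpl30 in 56.3% at 5 days and 21.7% uninjured, and the adhesion-complex protein Ctnna1 in 81.3% at 5 days and 50% uninjured. Prpf38b, a splicing factor, was found in 56.3% at 5 days (41.2 to 70.5) and 26.1% uninjured (14.3 to 41.1), the narrowest gap between intervals of this group. These last 4 had log2 ratios of 0.33 to 0.95.

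Ssr1 encodes a subunit of the translocon-associated complex, which assists the entry of proteins into the endoplasmic reticulum. Its median, upper quartile and maximum were 227.4, 1649 and 4675 CPM at 5 days, against 0, 193.8 and 4116 CPM uninjured. Ssr1 was found in 33 of 48 cells at 5 days (68.8%, 53.7 to 81.3) and 15 of 46 uninjured (32.6%, 19.5 to 48.02), with a log2 ratio of 1.32. Ssr3, another subunit, was higher by a like ratio (1.41), with medians of 306.4 CPM at 5 days and 96.8 CPM uninjured, though in like shares of cells (68.8% at 5 days and 60.9% uninjured). Ssr2 and Ssr4 stood at −0.18 and 0.02. Of 28 measured genes for signal-sequence handling, 4 (Ssr1, Ssr3, Srp9 and Srp72) were higher and 2 (Sec11c and Stt3b) lower by 2-fold or more, with a median of −0.01. Srp9 and Srp72 lay at the limit, at 1.02 and 1.00, and below it, at 0.97 and 0.84, with each near-identical pair counted once.

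**Figure D3:**
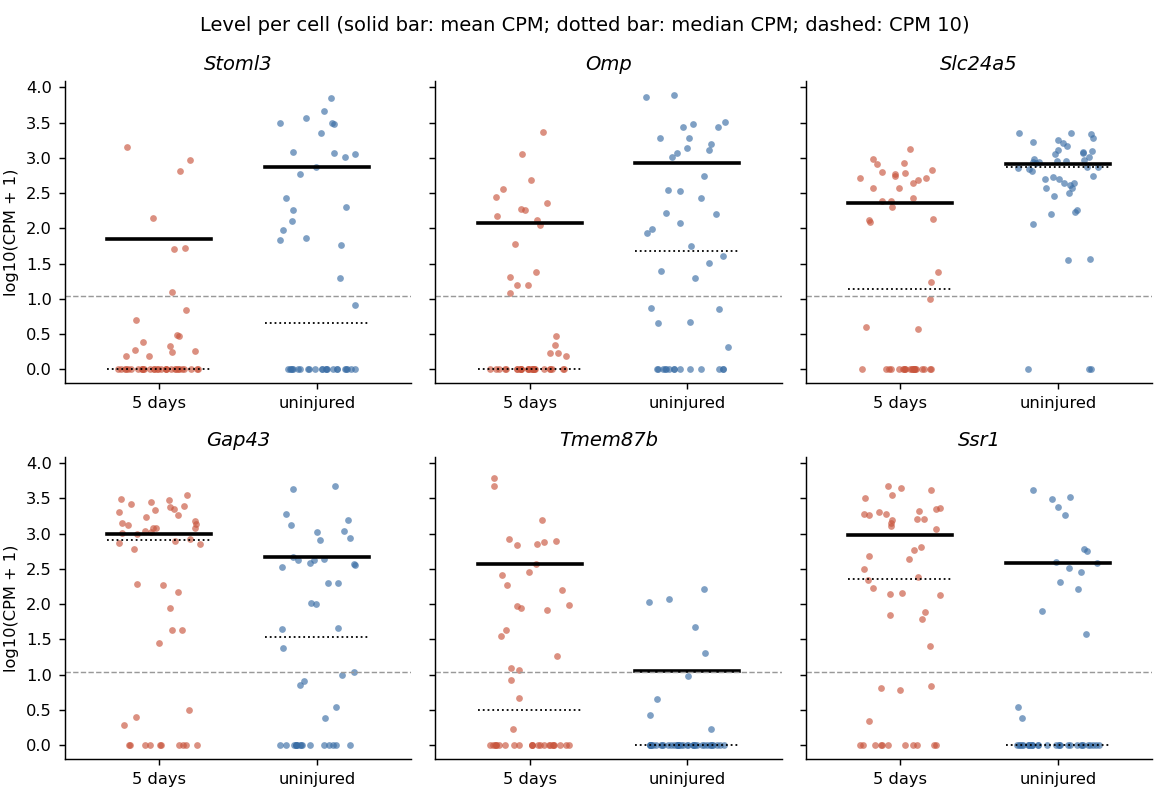
Level per cell, as log10 of CPM plus 1 (vertical axis, log scale), of 3 genes lower at 5 days (upper row) and 3 higher (lower row), for 48 cells at 5 days (left) and 46 uninjured cells (right); the solid bar is the mean CPM, the dotted bar the median CPM and the dashed line a CPM of 10. Stoml3, Omp and Slc24a5 have more cells at or near 0 at 5 days, and Gap43, Tmem87b and Ssr1 fewer.

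Slc24a5 was lower at 5 days and was found in nearly every uninjured cell. It encodes a cation exchanger known from pigment cells and had a median of 12.6 CPM at 5 days, against 728 CPM uninjured, with maxima of 1348 CPM at 5 days and 2231 CPM uninjured. It was found in 24 of 48 cells at 5 days (50%, 35.2 to 64.8) and 43 of 46 uninjured (93.5%, 82.1 to 98.6), with a log2 ratio of −1.81. At 5 days every kept cell numbered 1 to 12 had it, but only a minority of those numbered 13 to 51. Many of the latter held non-zero values far below the limit of 10 CPM, down to 6.63e-31 CPM in cell 40. The part of library order, and of the gene overlap described below, in this difference was not tested. In cells with a Y-linked gene and no Xist the shares were 50% at 5 days and 96% uninjured, and at 14 days it was found in 11 of 25 cells (44%, 24.4 to 65.1). The gene overlaps Myef2 on the opposite strand in the GENCODE M21 annotation, and with unstranded libraries their reads cannot be told apart. Pclo, a large scaffold protein of the presynaptic active zone, had medians of 163.7 CPM at 5 days and 463.9 CPM uninjured, and was found in 37 of 48 cells at 5 days (77.1%, 62.7 to 87.97) and 45 of 46 uninjured (97.8%, 88.5 to 99.9).

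Gpr171, a G-protein-coupled receptor gene that overlaps Med12l, was found in 3 of 48 cells at 5 days (6.25%, 1.31 to 17.2) and 14 of 46 uninjured (30.4%, 17.7 to 45.8), with means of 8.25 CPM at 5 days and 245.6 CPM uninjured. Tmem117, which overlaps Nell2, was found in 6 cells at 5 days (12.5%) and 19 uninjured cells (41.3%), with means of 28.9 CPM at 5 days and 175.9 CPM uninjured. The nuclear export receptor Xpo6, the ubiquitin ligase Rnf157 and the mRNA-decapping scaffold Edc4 were found in 8.33% to 10.4% of cells at 5 days and 34.8% to 41.3% of uninjured cells, with log2 ratios of −2.45 to −2.11. Edc4, at −2.11, stood at −1.24 in cells with a Y-linked gene and no Xist, and overlaps Nrn1l. Ccdc157 was found in 33.3% of cells at 5 days and 69.6% of uninjured cells, and also overlaps another gene, Rnf215. Endod1, Pacs2, Tpm1 and the metallothionein Mt2 had log2 ratios of −1.50 to −1.28, in 12.5% to 20.8% of cells at 5 days and 43.5% to 54.3% of uninjured cells. Tpm1, at −1.32, stood at −2.54 without the libraries with sustentacular markers. The histone H4 methyltransferase Suv420h2, the kinase Chuk of the NF-kappaB pathway and the microRNA-silencing protein Tnrc6b passed on their shares, with log2 ratios of −0.86, −0.60 and −0.22. The means of Chuk, Tmem117, Xpo6 and Suv420h2 at 5 days rest on 1 cell each, with 70.3% to 76.5% of the sum, and Tnrc6b and Chuk change direction under alternatives given with the processing.

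**Figure D4:**
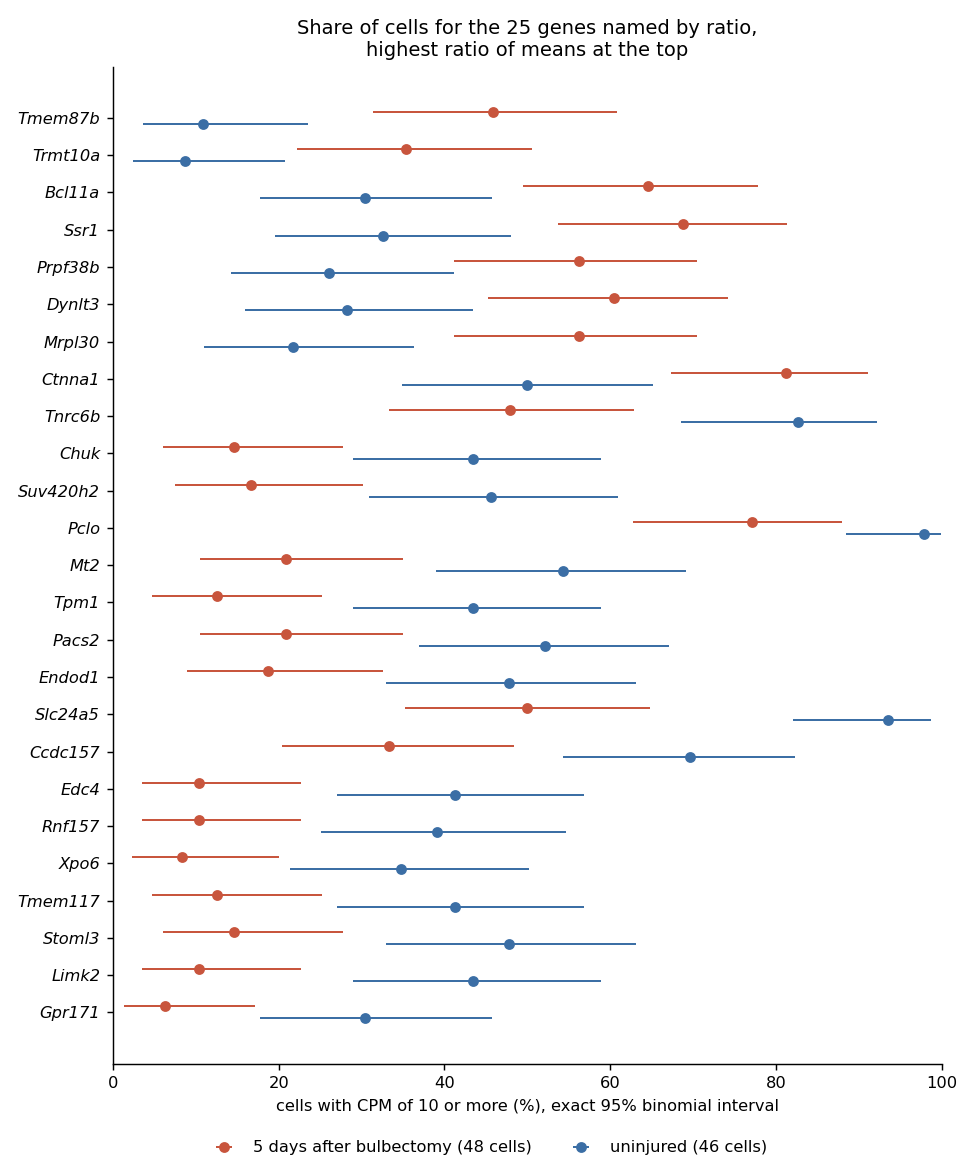
Share of cells in which a gene was found (%, horizontal axis) for the 25 genes named by ratio, with exact 95% binomial intervals, for 48 cells at 5 days (red, upper point) and 46 uninjured cells (blue, lower point), ordered by ratio of means. Tmem87b, at 45.8% at 5 days and 10.9% uninjured, leads the 8 higher genes, and Gpr171, at 6.25% at 5 days and 30.4% uninjured, ends the 17 lower ones.

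In the unfolded protein response, which neurons engage while they choose a receptor, 5 of 21 measured genes were higher and 2 lower by 2-fold or more (median 0.22). Over all measured genes 20.9% were higher and 26.3% lower by as much. Herpud1, a component of endoplasmic-reticulum-associated degradation, was found in 25 of 48 cells at 5 days (52.1%, 37.2 to 66.7) and 14 of 46 uninjured (30.4%, 17.7 to 45.8), with upper quartiles of 419.9 CPM at 5 days and 49.1 CPM uninjured. Edem1, of the same process, averaged 468.3 CPM at 5 days and 149.1 CPM uninjured, in 14 cells at 5 days and 7 uninjured cells. With each near-identical pair counted once its 5-day mean was 369.2 CPM and its log2 ratio 1.30, against 1.64 in all kept cells. The sensor Atf6 and the chaperone Creld2 were lower, found in 6 cells at 5 days and 15 uninjured cells and in 4 cells at 5 days and 12 uninjured cells, and the chaperone Hspa5 stood at 0.46. Of 22 Golgi and vesicle genes, 3 were higher and 4 lower by 2-fold or more (median −0.03), beside the same 20.9% and 26.3%. Rab11a, a GTPase of recycling endosomes, was 1 of the higher ones (log2 ratio 1.26, in 68.8% of cells at 5 days and 69.6% of uninjured cells). The coat protein Sec31a was lower, at 44.1 CPM at 5 days and 302.5 CPM uninjured, found in 9 cells at 5 days (18.8%, 8.95 to 32.6) and 20 uninjured cells (43.5%, 28.9 to 58.9).

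Among 17 factors of odorant receptor choice, 0 were higher and 3 (Ebf3, Adcy3 and Ehmt2) lower by 2-fold or more, with a median of −0.30. Lhx2, a homeodomain activator of receptor enhancers, had medians of 292.5 CPM at 5 days and 653 CPM uninjured and was found in 83.3% of cells at 5 days and 95.7% of uninjured cells. Ebf3 had medians of 115.8 CPM at 5 days and 308.4 CPM uninjured, whereas Ebf1 and Ebf2 stood at 0.35 and −0.32. An odorant receptor of at least 50 CPM was present in 36 of 48 cells at 5 days (75%, 60.4 to 86.4) and 38 of 46 uninjured (82.6%, 68.6 to 92.2). At 5 days 12, 13, 14 and 9 cells had 0, 1, 2 and 3 or more receptors, against 8, 15, 6 and 17 uninjured cells. The highest receptor of a cell made up a median of 95.2% of its receptor signal at 5 days and 77.3% uninjured, with ranges of 41.2% to 100% at 5 days and 25.5% to 100% uninjured. That receptor reached 1000 CPM in 22 of 48 cells at 5 days (45.8%) and 20 of 46 uninjured (43.5%).

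Of 27 measured chromatin modifiers, 3 were higher and 4 lower by 2-fold or more (median −0.01), beside 20.9% and 26.3% of all measured genes. Tet2, a dioxygenase that oxidises methylated cytosine, averaged 200.8 CPM at 5 days and 37.7 CPM uninjured and was found in 25 cells at 5 days (52.1%, 37.2 to 66.7) and 16 uninjured cells (34.8%, 21.4 to 50.2). Its relative Tet1 was found in 11 cells at 5 days and 21 uninjured cells, at a log2 ratio of −0.27. Suz12, a core subunit of the Polycomb complex that methylates histone H3, averaged 244.6 CPM at 5 days and 611 CPM uninjured, in 27 cells at 5 days and 31 uninjured cells, and its catalytic partner Ezh2 stood at −0.45. Of 28 precursor transcription factors, Bcl11a and St18 were higher and 4 lower by 2-fold or more (median 0.05). Neurod1 and Insm1, which act after Neurog1, were found in 12 and 24 cells at 5 days and in 11 and 18 uninjured cells, at 0.51 and 0.11.

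Ion channel genes had a median of −0.45 over 23 measured genes, with 3 higher and 10 lower by 2-fold or more, beside 20.9% and 26.3% of all measured genes. The L-type calcium channel gene Cacna1d was found in 10 cells at 5 days (20.8%, 10.5 to 34.99) and 21 uninjured cells (45.7%, 30.9 to 60.99), and the sodium channel subunit Scn3b in 10 cells at 5 days and 18 uninjured cells. Scn9a, the sodium channel of olfactory neurons, stood at −0.03, in 83.3% of cells at 5 days and 89.1% of uninjured cells. Of 18 presynaptic genes 4 were higher and 4 lower by 2-fold or more (median −0.36), the lower ones being Slc17a6, Syt1, Syp and Pclo. These counts are near the 20.9% and 26.3% of all measured genes, so no direction is read from them. Among the clustered protocadherins, Pcdha5 averaged 403.3 CPM at 5 days and 137.2 CPM uninjured and was found in 28 cells at 5 days (58.3%, 43.2 to 72.4) and 15 uninjured cells (32.6%, 19.5 to 48.02). Transcripts of that cluster share exons, so the authors' counting could divide reads among them, and its values are uncertain.

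Several lists moved with few libraries. The sustentacular markers had a median of 5.03 over 8 measured genes, with 7 higher by 2-fold or more, and 2 libraries held 94.3% of their sum at 5 days. Summed per cell, these markers ran from 0 to 61096 CPM at 5 days (median 28.4) and from 0 to 984 CPM uninjured (median 0). Without the libraries with 5 or more such markers, 5 of 7 measured sustentacular genes were still higher by 2-fold or more, with a median of 2.40. Without those libraries the immediate early genes had a median of −0.34, against 3.01 with them, and the Notch genes −0.70, against 1.03. The G2 and M phase genes had a median of −3.02, and 2 cells held 77.5% of their sum at 5 days and 98.5% uninjured, the 2 at 5 days being the near-identical cells 21 and 22. Without the highest cell of each group that median was 3.47, so no direction is read from it. Cells with any of Top2a, Mki67 and Cdk1 numbered 3 of 48 at 5 days, or 2 of 46 with each near-identical pair counted once, and 1 of 46 uninjured. Of the immune, horizontal basal and erythroid markers, 0 of 13, 0 of 5 and 0 of 5 were measured. Other markers were carried by few cells: 1 fibroblast and 2 endothelial or pericyte markers were higher by 2-fold or more, and 1 microvillar, 3 Bowman gland and 1 ensheathing glia markers were lower by as much. Without the libraries with sustentacular markers 0 fibroblast markers were measured, and of the endothelial or pericyte markers 1 was higher and 1 lower, with a median of 0.46, against 3.69 with them. The part of sustentacular RNA in the differences named above was not tested, beyond the values given without those libraries.

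**Figure D5:**
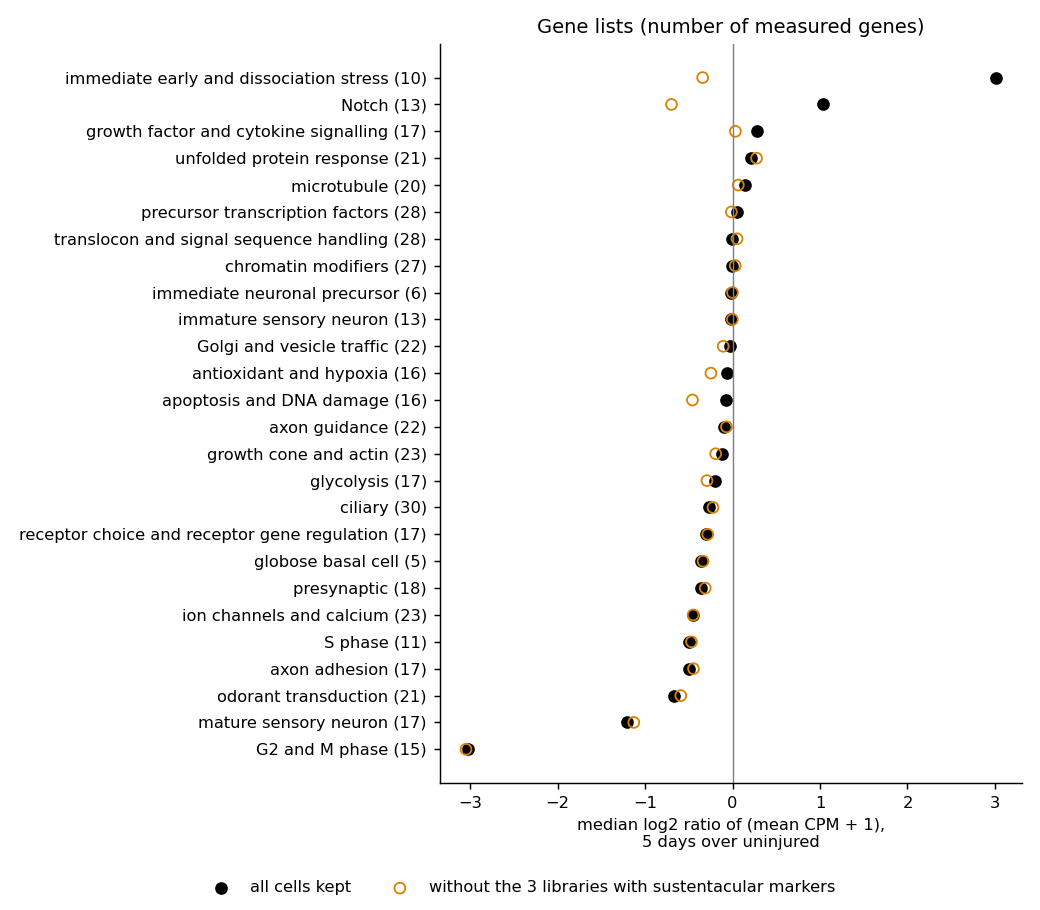
Median log2 ratio of mean CPM plus 1, at 5 days over uninjured (horizontal axis), for the gene lists of processes and neuronal stages, with the number of measured genes in brackets; filled points use all kept cells and open points leave out the 3 libraries with 5 or more sustentacular markers. The mature neuron list stands at −1.20 and, without those libraries, at −1.13, whereas the immediate early and Notch lists stand at 3.01 and 1.03 and, without those libraries, at −0.34 and −0.70.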

How the data were processed

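Polyadenylated RNA of single Neurog1-eGFP cells was profiled with the Fluidigm C1 system and Nextera XT libraries, per the labels' protocols. The authors deposited a table of signal, that is, estimated fragments per gene scaled by the authors so that cell totals are nearly alike, and a table of FPKM values. The submitters' processing notes name build mm9 and the tools STAR 2.5.2a, Cuffnorm, Cufflinks 2.2.1 and FastQC, without their roles. The annotation and any use of strand are not given in the sources used here, and no strand-marking kit is named.

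Of 23308 gene entries, 27 with names altered into dates (0.416% of the signal) were left out, which left 23281. The signal table has 469 columns, of which 331 hold other groups and were not used. Values became CPM of the column sum, and the FPKM table served as an alternative. The value of 1 fragment was sought per cell as the step of which most values were whole multiples within 0.02. A median of 96.3% of values at 5 days and 96.2% in uninjured cells were whole, and 93.8% in the lowest cell. Since depth is only recovered from these steps, it is an estimate. A fold is the log2 ratio of mean CPM plus 1, which understates low genes, and a share of 0 of n cells allows up to 3 divided by n. No doublet caller was run and no test was made, because each group is 1 sample.

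The 39 gene lists, the members and the naming rule were chosen with earlier results of these data known. By that rule the text names list members, and up to 20 highest and 20 lowest ratios with at least 50 CPM on average and 30% of cells found in the higher group, and share intervals that do not overlap. It adds the 10 widest differences in share each way. Odorant receptor, Gm, Rik and mitochondrial names were left out, as were genes whose ratio turns without the highest cell of each group. The promoter sequences are RefSeq's for GRCm38.p6, and Omp and Gap43 are named only. The ratio and the recovered step were tested on simulated data. Python 3.11.15, numpy 2.4.6, pandas 2.3.3 and scipy 1.17.1 were used. Alternatives were pseudocounts of 0.1 and 10, no level limit or one of 50, 500 or 2000 genes per library, the FPKM table, pooled fragments, leaving out the highest cell or the libraries with sustentacular markers, cells with a Y-linked gene and no Xist, thinning to 100000 fragments, and detection at a CPM of 1, 5 or 50. The share with Gap43 and no Omp was put through them after seeing the data. Also chosen after seeing the data were counting near-identical libraries once (each pair with a Pearson r of 0.9 or more between log2 values of CPM plus 1 replaced by its mean) and the share intervals of named genes in the subsets of cells.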

Additional observations from a re-analysis of the deposited data

How the results depend on the processing

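No paired analysis was possible because each group is 1 sample and cell numbers only name libraries. The mature marker median ranged from −1.52 (pooled fragments) to −1.01 (thinned), and the immature one from −0.04 to 0.17. With a pseudocount of 10, 1271 genes were at least 2-fold higher at 5 days and 1594 lower, and among genes averaging at least 50 CPM 699 and 861, because fewer genes enter or low ones shrink. Neurog1, counted from 50 CPM upward, was in 20.8% of cells at 5 days and 23.9% uninjured. No other leading share left the interval of its value. The uninjured share with Gap43 and no Omp, 10.9%, was 17.4% in FPKM, where the groups' intervals overlapped. Of 29 named genes, 26 kept their direction in all 13 alternatives for ratios, but not every alternative could turn it. A pseudocount or a level limit cannot turn the ratio of a single gene. Genes that turn without the highest cell had already been left out by the naming rule. Chuk was at 0.21 with libraries of 500 or more genes, and Tnrc6b at 0.21 in pooled fragments. Lphn2 was at −0.17 with 2000 or more genes, −0.030 in pooled fragments and −0.22 in cells with a Y-linked gene and no Xist. Of the lists, Notch stood at −0.22 with 2000 or more genes and at −0.70 without the libraries with sustentacular markers, where the immediate early list stood at −0.34. G2 and M phase genes stood at 3.47 without the highest cell. Odorant receptors, at −2.81 over 85 entries, stood at 4.92 among genes averaging at least 50 CPM and at 2.84 in cells with a Y-linked gene and no Xist. Depth limits low genes, since a CPM of 10 is under 1 fragment in the shallowest uninjured cell. For other causes of these moves, the cause was not tested.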

Other observations

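Outside the stage markers, nuclear-encoded transcripts of growth and energy supply were slightly lower on average at 5 days. Of 61 measured cytosolic ribosomal protein genes, 13 were higher and 48 lower at 5 days (median log2 ratio −0.44, beside −0.13 over all genes), and 1 and 5 passed 2-fold. Summed per cell, they had medians of 3573 CPM at 5 days and 4844 CPM uninjured, with overlapping quartiles (2590 to 5002 CPM at 5 days and 3070 to 6231 CPM uninjured). Of 71 respiratory chain genes 22 were higher and 49 lower (median −0.24), with 2 and 5 past 2-fold. Most measured genes were lower too, as the all-gene median of −0.13 implies. The shares of both lists past 2-fold were below the 20.9% and 26.3% of all measured genes. In cells with a Y-linked gene and no Xist 3 ribosomal genes passed 2-fold higher and 10 lower, and 3 and 11 respiratory chain genes. Over all genes measured in those cells 26.6% and 27.1% did so. Of 17 glycolysis genes 3 passed 2-fold higher and 7 lower in all kept cells (median −0.21), beside 20.9% and 26.3% of all measured genes. Among 30 ciliary genes, the transition-zone gene Tmem216 was higher, found in 10 cells at 5 days (20.8%, interval 10.5 to 34.99) and 2 uninjured cells (4.35%, 0.531 to 14.8). The intraflagellar transport gene Ift20 was lower, in 15 cells at 5 days (31.3%, 18.7 to 46.3) and 23 uninjured cells (50%, 34.9 to 65.1). Id3, an inhibitor of basic helix-loop-helix factors, was found in 16 cells at 5 days (33.3%, 20.4 to 48.4) and 5 uninjured (10.9%, 3.62 to 23.6), but its log2 ratio was 0.96 in all cells and −0.66 in cells with a Y-linked gene and no Xist. Jag1, a Notch ligand, was found in 13 cells at 5 days and 9 uninjured cells, at means of 278.3 CPM at 5 days and 91.1 CPM uninjured.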
